A study of Mus musculus with 6 samples.

Results

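The proteasome genes of the mouse were described in induced regulatory T cells (iTreg) treated with prostaglandin E2 (PGE2). They were chosen by gene name, taking every annotated gene whose symbol starts with Psma, Psmb, Psmc or Psmd and a digit, and leaving out Psmb8, Psmb9 and pseudogenes. That rule takes 38 genes, and 36 had a mean of at least 1 FPKM (fragments per kilobase of transcript, a level per length that is adjusted for depth) over the 6 libraries, among 12113 tested genes and 47643 listed gene IDs. Psma8, the testis form of an alpha subunit, and Psmb11, the beta subunit of the thymic cortex, were below that level, with means of 0.0626 and 0.00896 FPKM, and the lowest gene above it, Psmd5, had 10.3 FPKM. The 4 pseudogenes of the family had means of at most 0.0989 FPKM. Of the 36 genes, 15 encode the core particle, 17 the regulatory particle and 3 are chaperones of its assembly. The remaining gene, Psmc3ip, is a recombination factor of meiosis that shares the prefix and is not a subunit.

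All libraries came from C57BL/6 mice carrying Foxp3-DTR/EGFP, a reporter allele that marks Foxp3-expressing cells with green fluorescence and also gives them the diphtheria toxin receptor. CD4+ T cells of the spleen were grown for 2 days on plate-bound anti-CD3 with soluble anti-CD28 and TGF-β, then given vehicle (DMSO) or 100 nM PGE2 for 6 h, and the GFP-positive cells were sorted for RNA sequencing. There were 3 vehicle and 3 PGE2 libraries, and the labels leave out the age of the mice. Whether replicates are separate animals or separate cultures is not stated in the labels. The p-values therefore refer to the spread among these libraries, which may be technical.

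The proteasome is the protease that destroys proteins tagged with ubiquitin. Its core particle is a barrel of alpha rings, which gate the entry, around beta rings, which hold the proteolytic sites. The regulatory particle caps the barrel with a base, whose ATPase ring unfolds the substrate, and a lid, which removes the ubiquitin. Lymphocytes also make induced catalytic beta subunits, which take the place of the constitutive ones in the immunoproteasome. PGE2 acts on T cells through receptors that raise cyclic AMP, and cyclic AMP signalling activates factors that bind the cyclic AMP response element (CRE).

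Sequencing depth, estimated from how coverage scales with FPKM, was 3.996 to 5.446 gigabases per library, and replicate 3 was the shallowest library of each group. Libraries correlated across genes at 0.971 to 0.990 (Pearson r of log2(FPKM + 1)), with genes not being independent. All 7 regulatory T cell markers were among the tested genes, and their summed level was 1455 to 1542 FPKM with vehicle and 1610 to 1687 FPKM with PGE2. Ctla4, an inhibitory receptor among them, had 205, 201 and 191 FPKM with vehicle and 339, 351 and 346 FPKM with PGE2 (replicates 1, 2 and 3 in each group, here and below) and rose (log2 difference 0.79, SE 0.08, adjusted p = 0.00758 in limma). It was the 1 marker of the 7 that was called, though the mean was higher with PGE2 in 6. Il2ra, the highest of them, had a mean of 691 FPKM with vehicle and 640 FPKM with PGE2. Foxp3 had 99.4, 101 and 75.4 FPKM with vehicle and 136, 119 and 91.1 FPKM with PGE2. Its groups overlapped (log2 difference 0.32, adjusted p = 0.514 in limma). Of 4 markers of CD8 and NK cells, 2 were tested, and the 4 summed to 6.19 to 8.06 FPKM with vehicle and 8.46 to 11.2 FPKM with PGE2, with Ncr1 listed at 0 in all 6 libraries. Klrd1, a receptor chain of NK and CD8 cells in that list, had 0.961, 0.627 and 2.78 FPKM with vehicle and 2.54, 2.26 and 4.50 FPKM with PGE2 (log2 difference 0.80, SE 0.34). Its unadjusted p was 0.0482 and its adjusted p 0.378 in limma, and with the replicate number as a block it rose (adjusted p = 0.0325). Summed markers of B cells were at most 0.695 FPKM, those of myeloid cells at most 0.906 FPKM and those of erythroid cells at most 1.59 FPKM in any library, and 0 of their genes reached the level for testing. The part of these cells in the values below was not tested.

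The promoters of 4 genes are printed to set the letters before the start site beside the values that follow. The 250 bases before the RefSeq start site (GRCm38.p6, the mm10 assembly) were given for 30 of the 36 genes, with 32 start sites in all. The printed stretches belong to the gene with the highest difference between groups (Psmb10), a lid gene whose groups did not overlap (Psmd8), and a pair of constitutive catalytic subunits (Psmb5 and Psmb6). Capitals mark TGANNNNGC, the core of the antioxidant response element that Nfe2l1 and Nfe2l2 bind, and TGACG, the short core of the CRE, either of which reads as its reverse complement (CGTCA for the second) where the match is on the other strand. The Psmb10 stretch lies at chr8:105938393-105938642, minus strand, and holds neither. In Psmd8 (chr7:29180674-29180923, minus strand) TGACG begins 135 bases before the start site. In Psmb5 (chr14:54617996-54618245, minus strand) the motifs overlap in TGACGTCGC, 47 bases before the start site. In Psmb6 (chr11:70525107-70525356, plus strand) they overlap in TGACGGAGC, 9 bases before the start site, with a further CGTCA at 58 bases.
Psmb10: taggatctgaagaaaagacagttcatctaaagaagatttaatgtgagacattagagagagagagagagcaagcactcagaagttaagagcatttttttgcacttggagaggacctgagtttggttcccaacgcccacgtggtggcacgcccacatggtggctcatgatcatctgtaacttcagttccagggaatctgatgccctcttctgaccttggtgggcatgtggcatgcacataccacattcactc
Psmd8: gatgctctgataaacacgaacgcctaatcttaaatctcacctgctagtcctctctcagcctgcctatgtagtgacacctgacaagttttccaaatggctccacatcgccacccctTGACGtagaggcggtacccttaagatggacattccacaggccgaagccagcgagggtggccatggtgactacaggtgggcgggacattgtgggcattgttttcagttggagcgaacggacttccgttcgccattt
Psmb5: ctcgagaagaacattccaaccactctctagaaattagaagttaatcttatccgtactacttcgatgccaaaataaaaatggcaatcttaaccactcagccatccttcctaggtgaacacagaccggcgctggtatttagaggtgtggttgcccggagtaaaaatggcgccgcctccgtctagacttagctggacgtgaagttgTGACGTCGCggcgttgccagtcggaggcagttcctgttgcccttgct
Psmb6: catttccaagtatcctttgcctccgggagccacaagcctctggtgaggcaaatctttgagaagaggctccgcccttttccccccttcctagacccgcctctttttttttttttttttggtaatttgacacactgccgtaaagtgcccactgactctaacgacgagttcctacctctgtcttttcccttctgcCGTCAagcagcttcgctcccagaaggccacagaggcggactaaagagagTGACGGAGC

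Across these windows, TGANNNNGC was present on either strand in 12 of 30 proteasome genes (40%) and in 35.2% of all 32851 promoters of the same length. Here and below, a proteasome gene counts with a match at any of its start sites, while all promoters are counted singly. Psmc2 had TGANNNNGC and TGACG only at a start site 1464 bases after the gene's listed start. Other matches were also at distant start sites. Psmd5, with both motifs, had its only start site 4006 bases after the listed start. Psmd9, with TGANNNNGC, had it 58777 bases after. For Psmd1 (TGANNNNGC) and Psmd13 (TGACG) the distances were 232 and 426 bases. The full CRE, TGACGTCA, was in 0 of 30 genes and in 1.55% of all promoters. TGACG was in 12 of 30 genes (40%), 6 of 12 in the core and 5 of 14 in the regulatory particle, against 17.8% of all promoters. The genes with TGACG had a median log2 difference (PGE2 minus vehicle) of -0.02, and those without it of -0.04. CCAAT, the box bound by the NF-Y factors, was in 12 of 30 genes and 33.8% of all promoters, and GAAANNGAA, a core of interferon response elements, in 3 of 30 genes and 7.13% of all promoters. TGACG and GAAANNGAA were added after the values were seen. Proteasome promoters had a median GC content of 54.6%, against 52.4% for all. A match is a description of letters and not a binding site.

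After 6 h of PGE2, 0 of the 36 proteasome genes rose and 0 fell, where 98 of all 12113 tested genes (0.809%) were called by limma at an adjusted p under 0.05. At an unadjusted p under 0.05 there were 0 of 36, against 13% of all tested genes. A fit with the replicate number as a block called 395 genes (3.26%) and again 0 of 36, with 0 at an unadjusted p under 0.05. The read coverage deposited beside FPKM also called 0 of 36, with 0 at an unadjusted p under 0.05. The smallest adjusted p was 0.445, for Psmd7. In these bulk samples, less RNA of a gene per cell and fewer cells that express it cannot be told apart.

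The absence of a call came with narrow intervals. For 35 of 36 genes the 95% interval of the difference lay within 1.5-fold in both directions, which is ±0.585 on the log2 scale. The exception was Psmd11, described below. Differences ran from -0.18 for Psmd7 to 0.23 for Psmb10, with a median of -0.03, and all tested genes had a median of -0.03 as well. The median size of the difference without its sign was 0.06 on the log2(FPKM + 1) scale for proteasome genes and 0.12 for all tested genes, and all 36 had a mean of at least 10 FPKM, as 6058 of all tested genes did. The difference was above 0 in 12 genes and below 0 in 24. These counts depended on the scaling, with 20 above and 16 below 0 when libraries were shifted to a common median, and 6 above and 30 below 0 after quantile normalization. In 2 genes, both of the lid, every PGE2 library was below every vehicle library, an order that 11.9% of all tested genes showed. In 0 genes was every PGE2 library above every vehicle library, against 7.81% of all tested genes. A p that misses the threshold does not show that a gene was unaffected.

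**Figure D1:**
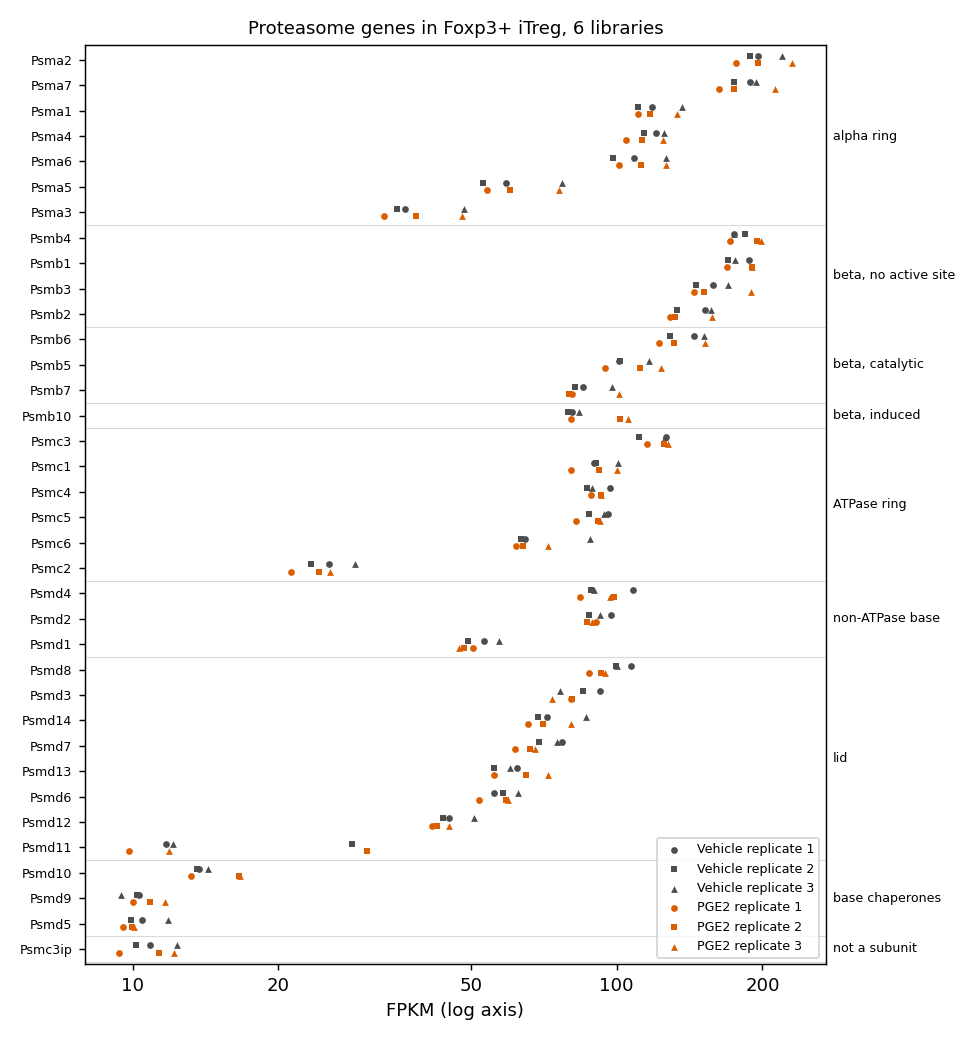
FPKM on a log axis (horizontal) for each of the 36 proteasome genes (rows, grouped by role and ordered by level), with a point for each of 3 vehicle and 3 PGE2 libraries. The groups overlap in all rows but Psmd7 and Psmd8, levels span 10.3 FPKM (Psmd5) to 201 FPKM (Psma2) by mean, and Psmd11 is split by replicate 2.

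The outer alpha rings had 7 measured genes, and 0 passed the test. Their differences were -0.08 (Psma4) to 0.03 (Psma6) on the log2 scale. Psma2, the most abundant proteasome gene here, had 196, 188.5 and 219 FPKM with vehicle and 176, 196 and 230.3 FPKM with PGE2. Its log2 difference was -0.01 (SE 0.12). The highest and the lowest library were both from the PGE2 group. Psma3, the least abundant gene of the ring, had 36.5, 35.2 and 48.3 FPKM with vehicle and 33.1, 38.5 and 47.9 FPKM with PGE2, with a difference of -0.01 (SE 0.17). In both groups its replicate 3 was the highest. Psma5 had the widest relative spread of the core genes, with an SD of 17.04% of its mean over the 6 libraries. It had 59.0, 52.8 and 77.3 FPKM with vehicle and 54.1, 60.2 and 76.1 FPKM with PGE2, and replicate 3 again stood above the others in both groups. The ring's smallest adjusted p was 0.829, for Psma4, with 121, 114 and 125 FPKM with vehicle and 104.5, 113 and 125 FPKM with PGE2. Its groups overlapped.

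Beta subunits that carry no proteolytic site had 4 measured genes (Psmb1 to Psmb4), and 0 passed the test. Psmb4, the most abundant of them and the one with the smallest p, had 175, 184 and 174.5 FPKM with vehicle and 171, 195 and 199 FPKM with PGE2. Its difference was 0.08 (SE 0.09), and PGE2 replicate 1 was below all 3 vehicle libraries. Psmb2, the least abundant, had 152, 133 and 156.5 FPKM with vehicle and 129, 132 and 157.5 FPKM with PGE2, with a difference of -0.08 (SE 0.11). Its groups overlapped, and replicate 3 was the highest library in both.

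The constitutive catalytic subunits are Psmb6 (caspase-like site), Psmb7 (trypsin-like site) and Psmb5 (chymotrypsin-like site), and 0 of 3 passed the test. Psmb6, whose promoter carries both motifs, had the highest level of them with 144, 129 and 152 FPKM with vehicle and 122.5, 132 and 152 FPKM with PGE2. Its difference was -0.07 (SE 0.11). Psmb7 had the lowest level, with 85.0, 82.0 and 97.6 FPKM with vehicle and 80.9, 79.7 and 101 FPKM with PGE2 and a difference of -0.02 (SE 0.12). For Psmb5 the libraries gave 101, 101.5 and 117 FPKM with vehicle and 94.6, 111.5 and 123.2 FPKM with PGE2, and the difference was 0.04 (SE 0.12). Replicate 3 was the highest library of its group for all 3 genes, with vehicle and with PGE2.

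Psmb10 (ENSMUSG00000031897.8; chr8:105935728-105938392 in mm10, protein coding) encodes the induced subunit that replaces Psmb7. It had 80.8, 79.5 and 83.5 FPKM with vehicle and 80.5, 101 and 105.5 FPKM with PGE2. PGE2 replicate 1 lay among the vehicle libraries, and PGE2 replicates 2 and 3 lay above all of them. The log2 difference was 0.23 (SE 0.12, 95% interval -0.04 to 0.50, adjusted p = 0.476 in limma). That is 1.17-fold on the log2(FPKM + 1) scale, and the adjusted p was 0.255 with the replicate number as a block. Between libraries of equal number it was -0.01, 0.35 and 0.33 for replicates 1, 2 and 3.

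Of the other induced subunits, which the naming rule leaves out, 0 of 2 passed the test. Psmb9, which replaces Psmb6, had 141.5, 134 and 145 FPKM with vehicle and 150, 168 and 195 FPKM with PGE2. All PGE2 libraries of Psmb9 were above all vehicle libraries, and the log2 difference of 0.28 (SE 0.11) had an unadjusted p of 0.041 and an adjusted p of 0.358 in limma. Psmb8, which replaces Psmb5, had 335, 301 and 295 FPKM with vehicle and 290.5, 345 and 356.5 FPKM with PGE2, with groups that overlapped (0.09, adjusted p = 0.829 in limma). In FPKM, which is a level per length, Psmb8 was above Psmb5 in 6 of 6 libraries. Psmb9 was above Psmb6 in 4 of 6, of which 3 were the PGE2 libraries. Psmb9 minus Psmb6 was -2.6, 5.6 and -6.9 FPKM with vehicle and 27.5, 36.0 and 42.5 FPKM with PGE2. Psmb10 was above Psmb7 in 2 of 6, both with PGE2. Psmb10 minus Psmb7 was -4.23, -2.54 and -14.1 FPKM with vehicle and -0.4, 21.69 and 4.3 FPKM with PGE2. Several of these margins were small beside the levels, and a switch between subunits was not tested.

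The ATPase ring of the base had 6 measured genes and 0 passed the test, with differences from -0.12 (Psmc2) to 0.02 (Psmc3). Psmc3, the most abundant, had 127, 111 and 126 FPKM with vehicle and 115.5, 125.5 and 128 FPKM with PGE2 and a difference of 0.02 (SE 0.09). Psmc4 was the steadiest proteasome gene, with an SD of 4.11% of its mean over the 6 libraries. Its values were 97.1, 87.0 and 88.7 FPKM with vehicle and 88.6, 93.0 and 92.6 FPKM with PGE2. Psmc2, the least abundant by its annotated entry and the one with the smallest p of the ring, had 25.4, 23.4 and 28.8 FPKM with vehicle and 21.2, 24.2 and 25.5 FPKM with PGE2 and a difference of -0.12 (SE 0.11). Its annotated entry was 28.4% to 30.0% of the assembled locus at the same place, which reached 74.1 to 98.2 FPKM. The low rank of Psmc2 was thus that of its annotated entry, and the range of the locus overlapped the levels of the other ATPase genes.

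The remaining base subunits are Psmd1 and Psmd2, the large scaffold proteins, and Psmd4, a ubiquitin receptor, and 0 of 3 passed the test. Psmd4, the most abundant, had 108, 88.7 and 89.7 FPKM with vehicle and 84.0, 98.7 and 96.6 FPKM with PGE2. Its difference was -0.03 (SE 0.11) in FPKM and 0.06 in coverage, so its sign depended on the measure. Psmd1, the least abundant and the one with the smallest p, had 53.2, 49.3 and 57.2 FPKM with vehicle and 50.4, 48.4 and 47.3 FPKM with PGE2. Its difference was -0.12 (SE 0.09), and PGE2 replicate 3 was the lowest library of all 6. Psmd2 had 97.2, 87.7 and 92.5 FPKM with vehicle and 90.5, 86.7 and 89.0 FPKM with PGE2, with overlapping groups.

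The lid had 8 measured genes and 0 passed the test, with a log2 difference below 0 in 7. Psmd7 (ENSMUSG00000039067.4; chr8:107580381-107588482, protein coding), the partner of the deubiquitinating subunit Psmd14, had 77.2, 69.0 and 75.3 FPKM with vehicle and 61.5, 66.1 and 67.9 FPKM with PGE2. Psmd8 (ENSMUSG00000030591.17; chr7:29174188-29180701, protein coding), a structural lid subunit, had 107, 99.4 and 100 FPKM with vehicle and 87.5, 92.8 and 94.6 FPKM with PGE2. In both genes all PGE2 libraries were below all vehicle libraries. The gap was small in each, from 67.9 to 69.0 FPKM in Psmd7 and from 94.6 to 99.4 FPKM in Psmd8. For Psmd7 the log2 difference was -0.18 (SE 0.09), with an adjusted p of 0.445 in limma and 0.29 with the block. For Psmd8 it was -0.16 (SE 0.08), with adjusted p = 0.481 in limma and 0.338 with the block.

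Psmd14, the metalloprotease that cuts ubiquitin off the substrate, had 71.7, 68.8 and 86.2 FPKM with vehicle and 65.6, 70.6 and 80.6 FPKM with PGE2 and a difference of -0.06 (SE 0.12). Its groups overlapped. Psmd13 was the lid gene with a log2 difference above 0, and had 62.3, 55.9 and 60.1 FPKM with vehicle and 55.8, 64.9 and 72.2 FPKM with PGE2. The difference was 0.11 (SE 0.11), and its annotated entry was 67.0% to 72.1% of the assembled locus. The other lid genes, Psmd3, Psmd6 and Psmd12, had differences of -0.11, -0.05 and -0.11.

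Psmd11 (ENSMUSG00000017428.16; chr11:80428615-80473248, protein coding), a lid subunit, differed between libraries in FPKM and far less in coverage. It had 11.7, 28.3 and 12.1 FPKM with vehicle and 9.84, 30.5 and 11.9 FPKM with PGE2. Replicate 2 was high in both groups, and the SD was 53.9% of the mean over the 6 libraries. Coverage divided by library depth was 10.3, 10.2 and 11.9 with vehicle and 9.77, 9.64 and 9.80 with PGE2, with no rise in replicate 2. The assembled loci at its place summed to 74.3, 31.8 and 80.4 FPKM with vehicle and 67.0, 30.5 and 63.1 FPKM with PGE2, so that replicate 2 was the lowest there. The FPKM difference of -0.05 had a 95% interval of -1.13 to 1.03, and the coverage difference was -0.13. Neither passed the test. The high values of replicate 2 were thus in the FPKM of the annotated entry, and neither in its coverage nor in the summed loci.

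**Figure D2:**
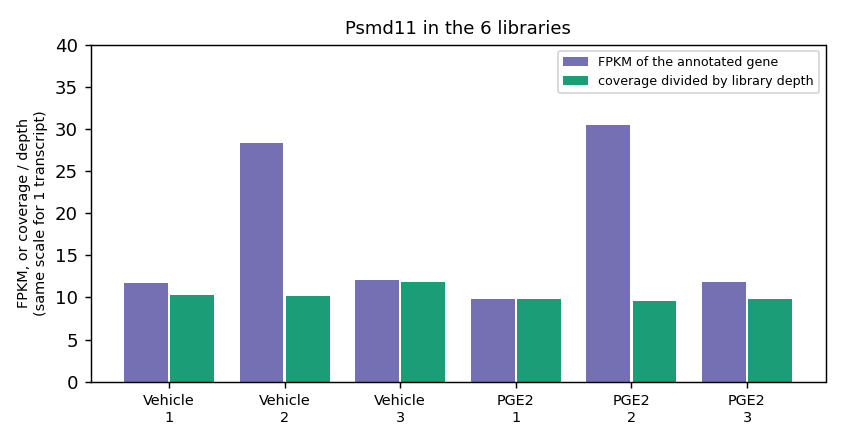
FPKM of the annotated Psmd11 gene and coverage divided by library depth (vertical axis, bars from 0) in each of the 6 libraries. FPKM is high in replicate 2 of both groups (28.3 and 30.5), while coverage over depth stays between 9.64 and 11.9.

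Chaperones that hold the base together during assembly were among the least abundant genes of the set, and 0 of 3 passed the test. Psmd10, the highest of them, had 13.7, 13.6 and 14.3 FPKM with vehicle and 13.2, 16.6 and 16.6 FPKM with PGE2 and a difference of 0.14 (SE 0.11). PGE2 replicate 1 was the lowest library, and PGE2 replicates 2 and 3 were the highest. Psmd5, the lowest, had 10.5, 9.91 and 11.9 FPKM with vehicle and 9.56, 9.98 and 10.1 FPKM with PGE2 and a difference of -0.11 (SE 0.09). For Psmd9 the difference was 0.11 in FPKM and its groups overlapped. Psmc3ip, the gene that is not a subunit, had 10.9, 10.2 and 12.4 FPKM with vehicle and 9.36, 11.4 and 12.2 FPKM with PGE2 and a difference of -0.02 (SE 0.12).

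**Figure D3:**
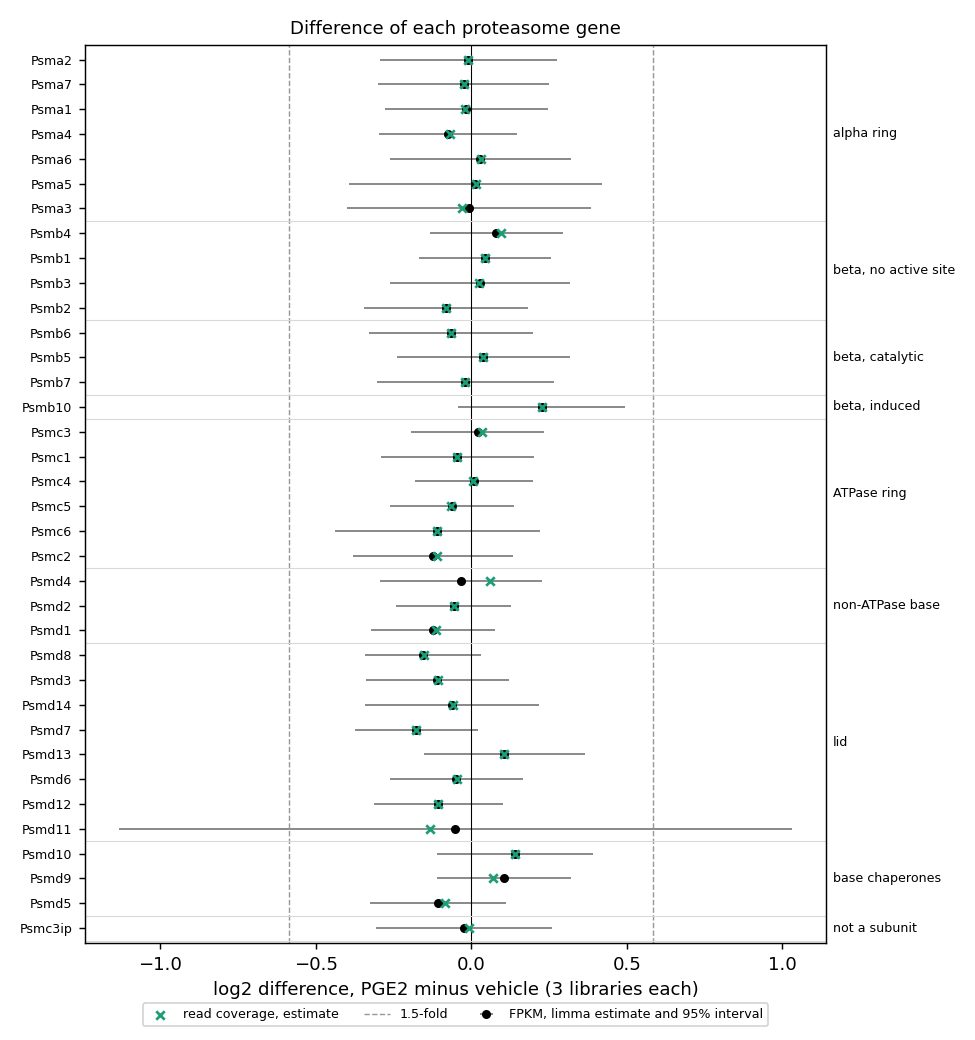
Log2 difference, PGE2 minus vehicle (horizontal), for each proteasome gene, with the limma estimate and its 95% interval in FPKM (black) and the estimate in coverage (green). Every interval includes 0, dashed lines mark 1.5-fold, and only the interval of Psmd11 passes them.

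The core particle was then compared with the regulatory particle. By mean over the 6 libraries, core genes had a median level of 121 FPKM and regulatory genes of 73.9 FPKM. Core genes ranged from 39.9 (Psma3) to 201 FPKM (Psma2) and regulatory genes from 17.4 (Psmd11) to 122 FPKM (Psmc3). These are levels of annotated entries, which for Psmc2, Psmd11 and Psmd13 fell to 28.4%, 14.7% and 67.0% of their assembled loci. Among the 15 core genes the lowest such share was 96.0% (Psmb7), so the gap in level is in part one of annotated entries. The median log2 difference with PGE2 was -0.01 over 15 core genes and -0.06 over 17 regulatory genes, beside -0.03 over all tested genes. The medians differed by 0.06 on the log2 scale, and by -0.02, the opposite sign, without PGE2 replicate 3. With libraries shifted to a common median, the core median was 0.04. The difference was below 0 in 8 of 15 core genes, in 14 of 17 regulatory genes and in 56.7% of all tested genes. With the common median these were 3 of 15, 12 of 17 and 45.9%, and after quantile normalization 13 of 15, 16 of 17 and 51.9%. These are descriptions, since the genes of a complex are not replicates.

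Within each library the mean of log2(FPKM + 1) over the core genes exceeded that over the regulatory genes. The excess was 0.80, 0.74 and 0.90 with vehicle and 0.84, 0.79 and 1.03 with PGE2, in replicates 1, 2 and 3. The groups overlapped, with 0.81 ± 0.08 for vehicle and 0.89 ± 0.12 for PGE2 (SD, n = 3). Between libraries of equal number the excess was higher with PGE2 by 0.05, 0.06 and 0.13. Without Psmd11 the excess was 0.64, 0.66 and 0.75 with vehicle and 0.69, 0.72 and 0.88 with PGE2. Its differences between libraries of equal number were then 0.04, 0.06 and 0.13. The sign was thus the same in each of the 3 number pairs, but numbers 1 and 2 were not told apart by the values. With Psmd11 counted, PGE2 replicate 2 (0.79) was not above vehicle replicate 1 (0.80), while without Psmd11 it was (0.72 and 0.64). The step in 2 of the number pairs, with Psmd11 counted, was smaller than the SD of the vehicle libraries. Without Psmd11 the SD of the vehicle libraries was 0.05, and only the step of replicate 1 was smaller. The SD of the PGE2 libraries was then 0.10, and the steps of replicates 1 and 2 were both smaller than it.

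**Figure D4:**
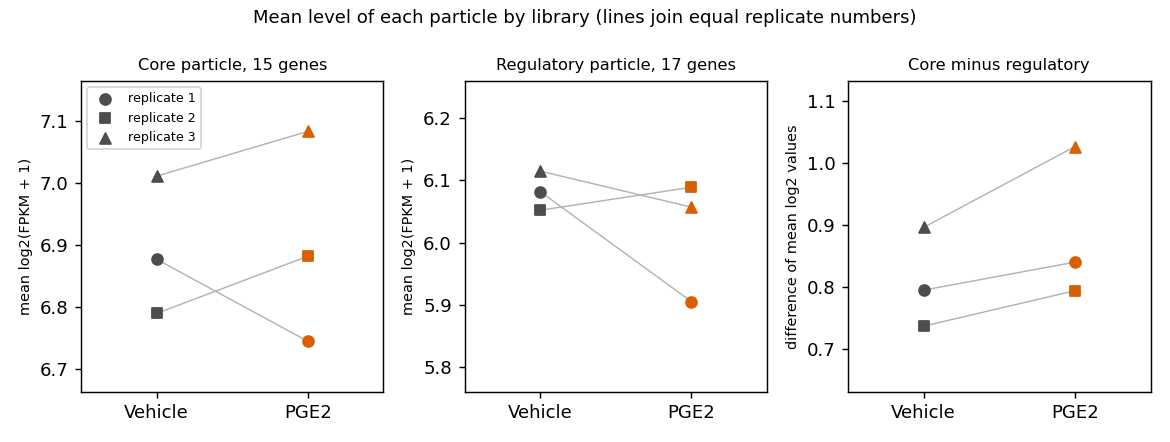
Mean log2(FPKM + 1) over the 15 core genes, over the 17 regulatory genes, and their difference (vertical axes, not starting at 0), one point per library, with lines joining equal replicate numbers. Core and regulatory means go down in replicate 1 and up in replicate 2 with PGE2, and the difference is 0.05, 0.06 and 0.13 higher.

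The direction of the difference in the proteasome genes varied with the replicate number. In replicate 1, 36 of 36 were lower with PGE2 than with vehicle, where 54.9% of all tested genes were. In replicate 2 it was 9 of 36 (all tested genes 49.6%), and in replicate 3 it was 20 of 36 (all tested genes 56.9%). With libraries shifted to a common median these counts were 34, 6 and 7 of 36. Core genes had median differences of -0.13, 0.08 and 0.05 in replicates 1, 2 and 3. Regulatory genes had -0.15, 0.02 and -0.05, and all tested genes -0.03, 0.001 and -0.05. The PGE2 library of replicate 1 was the deepest of the 6. These pairs rest on the numbers in the titles, and numbers 1 and 2 were not told apart by the values. Against vehicle replicate 2, PGE2 replicate 1 was not lower in all 36 genes. Psmc3, for example, had 115.5 FPKM in PGE2 replicate 1 and 111 FPKM in vehicle replicate 2. The genes are not replicates, so each count describes a single pair of libraries.

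Replicate 3 was the highest library in both groups for 13 of 15 core genes, for 6 of 17 regulatory genes and for 22.3% of all tested genes. The mean of log2(FPKM + 1) over the core genes was 6.88, 6.79 and 7.01 with vehicle and 6.75, 6.88 and 7.08 with PGE2. Over the regulatory genes it was 6.08, 6.05 and 6.12 with vehicle and 5.91, 6.09 and 6.06 with PGE2. The core thus differed more between replicates 2 and 3 of the same treatment than between the group means, 6.89 ± 0.11 and 6.90 ± 0.17 (SD, n = 3). Both replicate 3 libraries were the shallowest of their group, and the part of depth in this was not tested.

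**Figure D5:**
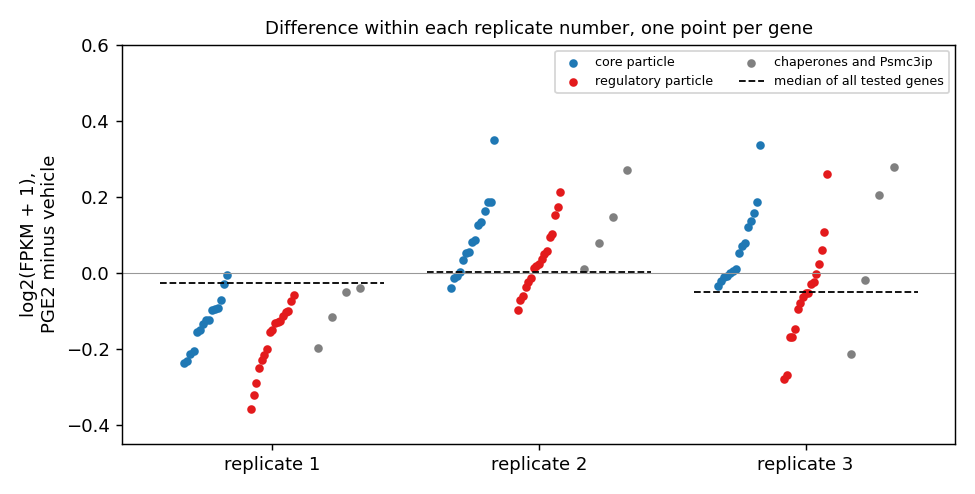
Log2(FPKM + 1) of PGE2 minus vehicle within each replicate number (vertical), one point per gene, coloured by particle, with a dashed line at the median of all tested genes. All 36 points lie below 0 in replicate 1, 9 lie below 0 in replicate 2, and in replicate 3 the median is 0.05 for core and -0.05 for regulatory genes. Pairs follow the numbers in the titles, and numbers 1 and 2 were not told apart by the values.

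Genes that work with the proteasome were described in 6 lists, with 45 tested genes, of which 0 rose and 0 fell in limma without a block. Over all tested genes 0.809% were called, so a count of 0 among 45 does not set these genes apart. Among 5 activators and inhibitors of the core particle, the median difference was -0.09. Psme3, the nuclear activator of the core particle, had 67.1, 68.7 and 68.7 FPKM with vehicle and 53.5, 54.1 and 46.2 FPKM with PGE2. All PGE2 libraries were below all vehicle libraries. The log2 difference was -0.41 (SE 0.09), with an adjusted p of 0.0969 in limma and 0.0528 with the block. Over 17 alternatives the difference stayed between -0.45 and -0.33, and the adjusted p between 0.0392, for coverage with the block, and 0.338. Psme1 and Psme2, the interferon-induced activator, had differences of 0.04 and 0.14.

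Assembly factors (6 genes) had a median difference of -0.13, and Pomp, the maturation factor of the core and the highest of them, had 58.2, 56.9 and 61.9 FPKM with vehicle and 53.9, 64.5 and 72.7 FPKM with PGE2. Its groups overlapped. The other subunits and bound enzymes (7 genes) had a median of -0.04, with Adrm1, a ubiquitin receptor of the base, at 84.8, 73.0 and 71.6 FPKM with vehicle and 79.3, 79.6 and 76.3 FPKM with PGE2. Ubiquitin genes and the activating enzymes (6 genes) had a median of 0.04. None of the genes in these 3 lists had an unadjusted p under 0.05, against 13% of all tested genes.

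Shuttle proteins and the p97 complex (11 genes) had a median of -0.09. Vcp, the p97 ATPase that extracts substrates for the proteasome, had 132, 122.6 and 81.2 FPKM with vehicle and 78.9, 80.2 and 74.2 FPKM with PGE2. Its log2 difference was -0.49 in FPKM (SE 0.18, unadjusted p = 0.0258, adjusted p = 0.295 in limma) and -0.11 in coverage. Its vehicle replicate 3 lay close to the PGE2 libraries. Of 10 factors that control proteasome genes, the median was -0.02. Nfe2l1, the factor that raises subunit genes when activity is short, had 18.5, 17.3 and 19.5 FPKM with vehicle and 18.6, 18.0 and 15.9 FPKM with PGE2, with overlapping groups. Nfya, a subunit of NF-Y, had 20.4, 20.5 and 23.7 FPKM with vehicle and 17.9, 18.7 and 17.3 FPKM with PGE2 (log2 difference -0.25, SE 0.09, unadjusted p = 0.0287, adjusted p = 0.311 in limma). Mafk, a small Maf partner of Nfe2l1, had 18.8, 19.0 and 13.4 FPKM with vehicle and 13.9, 13.9 and 9.65 FPKM with PGE2. With the block it fell (adjusted p = 0.0386 in limma), and its adjusted p without the block was 0.384. The fit with the block called 3.26% of all tested genes.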

How the data were processed

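The 36 genes and all lists were chosen with earlier results of these data known. Per the submitters' processing notes, reads were handled with Trim Galore and HISAT2 on mm10. Their versions, and the quantification program, were not given in the sources used here. Per the file headers, a table for each library gives every entry a coverage, an FPKM and a TPM value. FPKM as the authors deposited it corrects for depth and length. Coverage as the authors deposited it is a mean read depth per base. The deposited TPM was treated as a score and not used, since each locus is listed both as assembled and as annotated. Only annotated entries were used, and no counts were at hand, so no counting intervals were computed. Coverage over depth was above 90% of FPKM in 11 of the 36 genes and was 3.02% of it at the lowest (Psmd14), so that coverage served for differences and not for levels. The coverage difference was within 0.05 (log2) of that of FPKM in 34 of 36, all but Psmd4 and Psmd11.

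Tested genes averaged 1 FPKM or more over the 6 libraries. They were compared on log2(FPKM + 1), a scale that understates folds of low genes, by limma 3.58.1 (R 4.3.3) with a variance trend, no covariate, two-sided, with Benjamini-Hochberg adjustment over all 12113 and a threshold of 0.05. The procedure was tested on simulated data. Groups and replicate numbers come from the sample titles. By the values, only number 3 stood apart as a pair. Both of its libraries were also the shallowest of their group, so a true pairing and shared depth cannot be told apart. Departures from each group's mean had correlations over genes of 0.227, 0.312 and 0.529 for numbers 1, 2 and 3. Replicates 3 against the other numbers gave -0.433 to -0.286. Departures sum to 0 within a group for each gene, so these negative values are in part built in. Numbers 1 and 2 were not told apart, as vehicle replicate 2 with PGE2 replicate 1 gave 0.271. Vehicle replicate 1 with PGE2 replicate 2 gave 0.149. Results with the block or by number thus rest on the numbers in the titles. Every gene of the naming rule could be named. The highest, the lowest and the smallest p of each class were given by library, with every gene of the related and marker lists at an unadjusted p under 0.05 and otherwise the highest of its list, which for the ubiquitin genes is not reported here. Psme1, Psme2, Nfe2l1 and the remaining genes with values by library were added after their values were seen. Promoters are those of RefSeq on GRCm38.p6. Of 32 start sites, 25 lay within 50 bases of the gene's start in the files. Alternatives were the block, pseudocount, filter, scaling, coverage, variance trend, leaving out each library, and the make-up of each particle. Figures were drawn with matplotlib 3.10.9.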

Additional observations from a re-analysis of the deposited data

How the results depend on the processing

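In each of 17 alternatives 0 proteasome genes were called. Over all tested genes the 98 calls became 395 with the replicate block (215 rose, 180 fell), 45 with no filter on low values and 159 in coverage. Among alternatives chosen after seeing the data, they became 635 in coverage with the replicate block and 310 with a common median and the replicate block. Leaving out single libraries gave 22 to 69 calls (40 without vehicle replicate 1, 33 without vehicle replicate 2, 69 without vehicle replicate 3, 35 without PGE2 replicate 1, 22 without PGE2 replicate 2 and 53 without PGE2 replicate 3). The replicate block changed the calls of Mafk and Klrd1 in FPKM and that of Psme3 in coverage (adjusted p = 0.0776 without it and 0.0392 with it), and of no other gene named here in the FPKM fit. The split of all calls was 69 higher and 29 lower, and with a common median it was 97 and 25.

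The core median of -0.01 ranged from -0.11 (without PGE2 replicate 3) to 0.10 (without PGE2 replicate 1), above 0 in 6 of 18 alternatives, among them a common median (0.04). The regulatory median was below 0 in 19 of 19 alternatives, at -0.10 to -0.01. Their difference was above 0 in 20 of 21 alternatives, up to 0.11, and was -0.02 without PGE2 replicate 3. The block, the filters and the variance trend could not move these medians. A shift of whole libraries to a common median could not move their difference. Such alternatives repeat the main value, and all use the same libraries, so these counts do not measure how firm the signs are. Psmb10 stayed between 0.15 and 0.35 (adjusted p 0.208 to 0.769), Psmd7 between -0.22 and -0.13 (0.236 to 0.676), Psmd8 between -0.19 and -0.11 (0.26 to 0.736) and Psmd11 between -0.52 and 0.34. At an unadjusted p under 0.05 were Psmd7 and Psmd8 with no filter and with quantile normalization, Psmb10 in both combined settings with the block, and Psmd10 and Psmb10 without PGE2 replicate 1. Dropping both replicates 3 or Psmd11 was also chosen after seeing the data. With 3 libraries a group, the intervals of 35 of 36 genes end within 1.5-fold, and differences inside them could not be resolved. The causes of these changes were not tested.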
